A study of Arabidopsis thaliana with 17 samples.

Results

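The transcripts of dark-grown Arabidopsis thaliana hypocotyls were compared between the moment of cutting (0 h) and 3 h later. Hypocotyls are the seedling stems that lengthen rapidly in the dark. Per the labels, seedlings were raised in darkness on MS-0 plates (Murashige and Skoog medium), the etiolated stems were cut with a sharp edge, and the pieces stayed in the dark on the same medium. Both groups are therefore cut tissue from unlit seedlings, and they differ by 3 h on the plate. The labels give no genotype, ecotype, seedling age or number of plants per library. Each group held 3 libraries (n = 3) of a course of 17 that also covered 1, 6, 12 and 24 h. Members of the comparison were the genes at 1 RPKM or more in at least 2 of the 6 libraries, which left 18734 of the 28642 genes in the deposited table. RPKM is reads per kilobase of gene model scaled to the mapped reads of the library, a per-length unit in which levels of different genes can be set side by side. Levels are given per library, or as mean ± SD (n = 3) going from 0 h to 3 h, and a signed number in brackets after them is the log2 change.

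Cutting a plant stem breaks cells, cuts off the flow of sugars and auxin from the shoot tip, and opens the tissue to microbes. Damaged cells release peptides and other molecules that receptors on their neighbours detect, and calcium influx, an oxidative burst and the hormone jasmonate follow. Wound sites of this kind later form callus, a mass of dividing cells.

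Depth was estimated from the low values as 20740970 mapped reads in 0 h replicate 1 and 7808719 to 7859248 in the other 5 libraries, so that 3 reads on a gene of 1 kb correspond to 0.145 RPKM in that library and to 0.382 to 0.384 RPKM in the others (counting error only). Libraries of one time point correlated at 0.972 to 0.990 within 0 h and 0.988 to 0.990 within 3 h across tested genes, against 0.776 to 0.804 between the times. Whether a group's libraries came from separate plants is not stated in the labels, so they may be technical replicates. In that case a p-value reflects no more than the scatter of these libraries. The groups used here include no uncut stems of the later hours. Time after the cut and culture time therefore cannot be told apart. Of the tissue markers, the 7 light-harvesting and Rubisco genes reached at most 9.03 RPKM in any of the 6 libraries, and the 5 tested had log2 changes of -0.75 to -0.06, not called. Without 0 h replicate 3, 2 of the 5 were called lower. PORA, a chlorophyll-synthesis gene of dark-grown seedlings, was at or below 0.632 RPKM. Of 5 root hair genes, EXPA7, COBL9, PRP3 and EXPA18 were at or near 0 and RHD2, an oxidase gene, rose from 0.599 ± 0.208 to 8.56 ± 0.932 RPKM. Of 5 shoot apex genes WUS, CLV3, CUC1 and CUC2 were at or near 0. STM, the fifth, had 2.05, 2.9 and 0.373 RPKM at 0 h and 0.188, 0.56 and 0.187 at 3 h, and its lower call was lost when any 1 of 4 libraries was left out (0 h replicates 1 and 2, 3 h replicates 1 and 3). Of 5 seed storage genes, SESA1 was at 0.0686, 0 and 0.181 RPKM at 0 h and 6.74, 5.07 and 3.08 at 3 h, and CRA1 (3.98 RPKM) and CRU3 (1.77 RPKM) were above 1 RPKM in 3 h replicate 2 alone. Of 7 xylem genes 1 fell and of 3 phloem genes 1 fell, with summed levels of 394 to 407 RPKM at 0 h and 306 to 422 RPKM at 3 h for xylem. Leaving out single libraries moved the xylem count from 0 (without 0 h replicate 1 or 3 h replicate 2) to 3 (without 3 h replicate 1) and ended the phloem call without 3 h replicate 2. In bulk tissue, fewer cells of a type and less RNA per cell cannot be told apart.

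Cutting was followed by a change in most of the transcriptome. At an adjusted p below 0.05 (limma's moderated test on log2(RPKM + 1), Benjamini-Hochberg adjustment over all tested genes), 69.6% of tested genes were called, 28.6% higher and 41.1% lower at 3 h. The counts of each gene list below are to be read against these shares. By at least 2-fold, 2284 genes (12.2%) were higher and 2756 (14.7%) were lower. On this log2(RPKM + 1) scale large rises outnumbered large falls: 955 genes rose at least 4-fold and 180 at least 16-fold, while 601 and 16 fell as far. Genes at least 2-fold higher made up 6.77% of the summed RPKM at 0 h (5.97% to 7.20% by library) and 32.6% at 3 h (31.8% to 33.1%). Genes at least 2-fold lower went from 32.8% (31.6% to 34.6%) to 9.69% (9.61% to 9.84%). The median change of all tested genes was -0.14 on the log2 scale. With each library centred on its median, the 2-fold counts were 2490 higher and 2407 lower. They were 2392 and 2572 with quantile scaling, and 2602 and 3466 with a pseudocount of 0.1. The excess of falls therefore depends on the scaling and on the pseudocount. Of the tested genes, 584 passed the limit of 1 RPKM through 3 h libraries alone and 709 through 0 h libraries alone, and these had to differ to be counted. Where they make up a sizeable part of a gene list, their number is given beside the list's counts, which they push in that direction. At that limit, 486 genes reached 1 RPKM in exactly 2 libraries (median 0.834 RPKM over the 6) and 589 untested genes reached it in 1 (median 0.564 RPKM).

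The 15 largest rises among genes with a symbol started at 18.3 RPKM or less in every 0 h library and ended at 99.6 RPKM or more in every 3 h library. LHT1, an importer of amino acids into cells, stood at 6.14, 3.87 and 3.34 RPKM at 0 h and 537, 481 and 455 at 3 h (log2 change 6.53 ± 0.27 SE, adjusted p 5.0e-11). DXPS1, annotated as a 1-deoxy-D-xylulose 5-phosphate synthase, was at 0.476, 0.343 and 0.228 RPKM at 0 h and 146, 126 and 149 at 3 h (log2 change 6.71 ± 0.16 SE, adjusted p 3.6e-14). MYB15, a regulator of lignin genes in immunity, was at 1.66, 1.97 and 0.895 RPKM at 0 h and 221, 256 and 256 at 3 h (log2 change 6.63 ± 0.13 SE, adjusted p 5.4e-15). In each of these genes every 3 h library was far above every 0 h library, and the 0 h libraries held at most 6.14 RPKM. ABR1, an AP2/ERF factor named as a repressor of abscisic acid responses, rose from 1.44 ± 0.162 to 213 ± 10.9 RPKM (6.46). The glutamate decarboxylase gene GAD4, of GABA synthesis, rose from 0.989 ± 0.196 to 172 ± 16.2 RPKM (6.44), and RSH2, annotated as root hair specific 2, from 0.531 ± 0.148 to 116 ± 14.3 RPKM (6.25). A pair of genes without a symbol rose further than most named ones. AT1G10585, annotated as a bHLH transcription factor, was at 0.19, 0 and 0.167 RPKM at 0 h and 412, 341 and 455 at 3 h (log2 change 8.49 ± 0.17 SE, adjusted p 1.4e-14). AT3G47380, annotated as a pectin methylesterase inhibitor family protein, was at 0.124, 0 and 0 RPKM at 0 h and 188, 154 and 197 at 3 h (log2 change 7.43 ± 0.18 SE, adjusted p 6.0e-14). Every log2 change compares means on the log2(RPKM + 1) scale, where the change of genes near 0 is understated.

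The largest falls included regulators, lipid and wall enzymes. HFR1, a bHLH factor that restrains elongation in shade, was at 60.2, 64.4 and 120.2 RPKM at 0 h and 2.56, 3.25 and 1.93 at 3 h (log2 change -4.47 ± 0.25 SE, adjusted p 4.7e-10). ATPMEPCRD, annotated in the superfamily of pectin methylesterases and their inhibitors, was at 898, 744 and 765 RPKM at 0 h and 47.6, 49.6 and 49.1 at 3 h (log2 change -4.01 ± 0.13 SE, adjusted p 8.3e-13). In both genes every 0 h library was far above every 3 h library. The fatty acid elongases KCS12 and KCS19 fell from 44.3 ± 12.1 to 1.39 ± 0.3 RPKM (-4.22) and from 47.7 ± 2.96 to 2.37 ± 0.53 RPKM (-3.86). ACL5, the thermospermine synthase that limits xylem differentiation, fell from 171 ± 28.5 to 10.7 ± 1.46 RPKM (-3.87), and RVE2, a MYB-like factor of the clock family, from 155 ± 31.6 to 9.67 ± 2.96 RPKM (-3.88). BAT1, an acyltransferase annotated at AT4G31910, fell from 70.8 ± 5.97 to 4.03 ± 1.66 RPKM (-3.89).

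**Figure D1:**
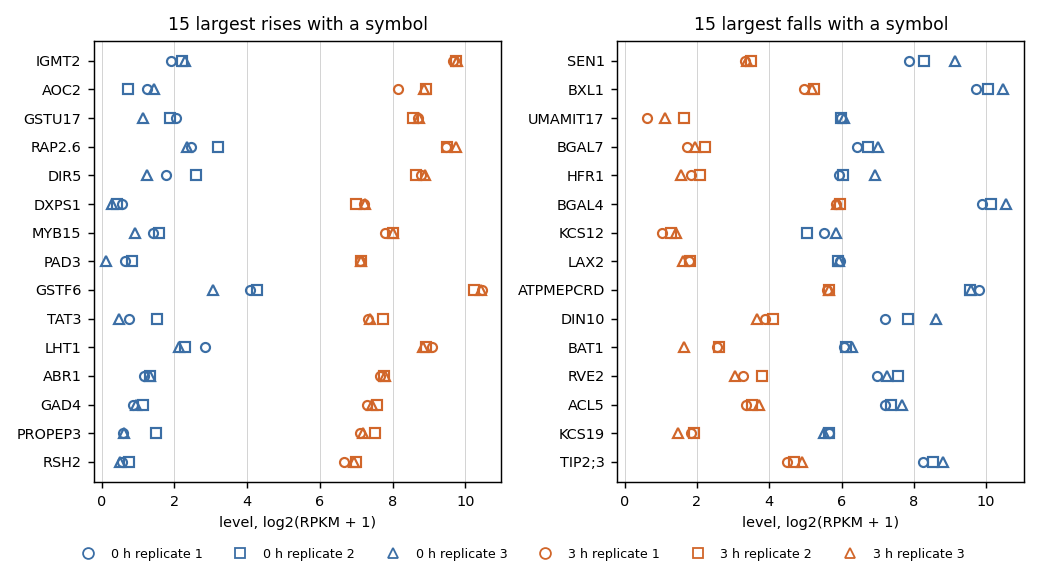
Level of the 15 largest rises (left) and the 15 largest falls (right) among genes with a symbol in each of the 6 libraries, as log2(RPKM + 1). Marker shape gives the replicate and colour the time, and no gene shown has overlapping groups.

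Abundant transcripts turned over as well. CAT3, a catalase, was at 6960.4, 6842 and 6378 RPKM at 0 h and 845, 934 and 894 at 3 h (log2 change -2.92 ± 0.09 SE, adjusted p 4.0e-13), the most abundant at 0 h of the named genes that fell by at least 2-fold. The glycine-rich protein genes GRP3S and GRP-3 fell from 6593 ± 610.1 to 3023 ± 288 RPKM and from 3478 ± 174 to 1404 ± 107 RPKM, the peroxidase gene PRXR1 from 3495 ± 227 to 669 ± 20.02 RPKM, and MLP28, of the major latex protein family, from 4252 ± 574 to 1726 ± 104 RPKM. At the other end, abundant genes that rose by at least 2-fold included the glutathione transferases GSTF2 (759 ± 112 to 3007 ± 172 RPKM), GSTU19 (574 ± 42 to 2928 ± 213 RPKM) and GSTF10 (745 ± 169 to 2595 ± 72.5 RPKM). GSTF2 shares 94.5% of its coding bases with GSTF3, so its own level is uncertain. CCoAOMT1, a methyltransferase of lignin precursors, rose from 593 ± 70.0 to 2302 ± 304 RPKM. AGP12, an arabinogalactan peptide gene, stood at 398, 452 and 113 RPKM at 0 h and 2267, 2386 and 2536 at 3 h, with 0 h replicate 3 well below the other 0 h libraries. Its log2 change was 3.13, and 2.49 (adjusted p 1.2e-09) without that library.

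The same 0 h library, replicate 3, set itself apart in several groups of genes. It was the lowest of the 0 h libraries in 41.5% of all tested genes and the highest in 36.5%, and it was at least 2-fold from the mean of the other 0 h libraries in 432 genes below and 72 above. In the auxin response list it was lowest for 15 of 19 tested members, in cuticular wax for 13 of 13 and in cellulose synthesis for 10 of 10, and in the carbon starvation list it was highest for 22 of 23. It was also lowest for 11 of 13 xyloglucan enzyme genes, 8 of 8 tryptophan synthesis genes, 23 of 25 phenylpropanoid genes, 16 of 19 sulfate and glutathione genes, 18 of 23 chaperones of the endoplasmic reticulum and 28 of 34 proteasome subunits. The median distance from the other 0 h libraries was -1.52 for auxin response and -1.40 for the xyloglucan enzymes on the log2 scale, and between -0.30 and -0.13 for the last 5 lists. Results for these lists are given below also without it. Among other lists, this distance was -0.99 for alpha-expansins, -0.95 for mitochondrial stress and -0.52 for camalexin and indole glucosinolates. In auxin synthesis and transport the library was lowest for 15 of 19. Without it, the mitochondrial median went from 2.65 to 2.13. Camalexin and indole glucosinolate genes then gave 21 higher of 25, and auxin synthesis and transport 15 lower and 3 higher of 19. Which property of the library moved these genes was not tested.

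**Figure D2:**
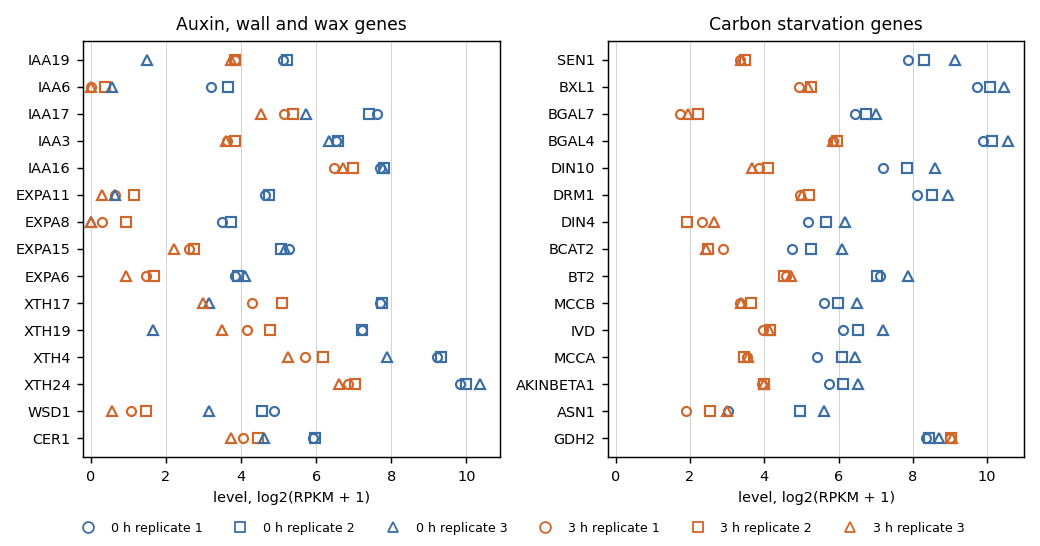
Level of 15 auxin, wall and wax genes (left) and 15 carbon starvation genes (right) in each of the 6 libraries, as log2(RPKM + 1). In 0 h replicate 3 (blue triangles) IAA19, EXPA11, XTH17 and XTH19 lie near or below the 3 h libraries, while SEN1, DIN10 and BCAT2 are higher than in the other 0 h libraries.

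The first group of genes examined belongs to jasmonate, a lipid-derived hormone made within minutes of wounding. Allene oxide cyclases make its ring, JAZ proteins repress its responses, and CYP94 enzymes break it down. Of 12 tested synthesis genes 11 were higher at 3 h and 1 was lower, with a median log2 change of 2.16. AOC2 was at 1.38, 0.65 and 1.69 RPKM at 0 h and 279.9, 480.4 and 465 at 3 h (log2 change 7.50 ± 0.22 SE, adjusted p 4.2e-13). Its 3 h libraries spread from 279.9 to 480.4 RPKM, and all lay far above 0 h. The related AOC1 rose from 0.991 ± 0.0888 to 58.1 ± 11 RPKM and AOC3 from 16.8 ± 4.53 to 310.4 ± 39.8 RPKM, while AOC4 fell from 46.1 ± 8.89 to 25.1 ± 2.41 RPKM. AOC1 and AOC2 share 89.9% of their coding bases, so reads may have been split between them. LOX3, a lipoxygenase at the entry of the pathway, was at 0.457, 0.388 and 0.43 RPKM at 0 h and 16.2, 19.9 and 17.7 at 3 h (log2 change 3.73 ± 0.14 SE, adjusted p 2.4e-12). Of the 12, 10 were lower at 3 h than at 1 h, among them OPR3, of the last steps in the peroxisome, with means of 15.7, 922, 76.1 and 67.1 RPKM at 0, 1, 3 and 6 h. Among 19 signalling and breakdown genes 10 were higher and 7 lower. The repressor gene JAZ8 was at 0.171, 0.226 and 0.226 RPKM at 0 h and 62, 51.7 and 60.4 at 3 h (log2 change 5.61 ± 0.27 SE, adjusted p 1.1e-10). JAZ10, JAZ1 and the catabolic gene CYP94B3 changed by 3.77, 3.29 and 3.47. The receptor gene COI1 fell from 23.1 ± 1.19 to 12.1 ± 0.398 RPKM and the activator MYC4 from 22 ± 1.63 to 7.87 ± 0.637 RPKM. MYC2, the central activator, was below its starting level at 3 h (75.2 ± 8.62 to 47.2 ± 5.24 RPKM; -0.66) after a mean of 473 RPKM at 1 h.

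Of 9 tested wound-induced defence proteins 8 rose, 3 of the 9 being tested through 3 h libraries alone. The aminotransferase gene TAT3 was at 0.675, 1.86 and 0.387 RPKM at 0 h and 158, 211 and 166 at 3 h (log2 change 6.56 ± 0.23 SE, adjusted p 4.7e-12). TI1, a trypsin inhibitor of the defensin-like type, was at 4.62, 4.67 and 1.3 RPKM at 0 h and 252, 204 and 259 at 3 h (log2 change 5.83 ± 0.30 SE, adjusted p 4.6e-10). Groups did not overlap for either gene. The 2 differed in time: TAT3 had means of 681 RPKM at 1 h and 22 RPKM at 6 h, and TI1 of 9.47 and 819 RPKM. PGIP1, an inhibitor of fungal pectinases, rose from 59.5 ± 31.1 to 359 ± 29.2 RPKM. KTI1, a Kunitz-type inhibitor gene, was the member that fell, from 394 ± 132 to 147 ± 11.8 RPKM (-1.36). PDF1.2 and CORI3 were listed at 0 in all 6 libraries.

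Transcription factors of stress responses moved upward. Of 27 tested WRKY genes, which encode zinc-finger factors that bind the W-box (core TTGAC), 24 were higher and 1 lower (median 2.06), and 23 rose by at least 2-fold. Of the 27, 5 were tested through 3 h libraries alone. WRKY28 was at 0.272, 0.616 and 0.41 RPKM at 0 h and 69, 69.9 and 75.6 at 3 h (log2 change 5.67 ± 0.11 SE, adjusted p 6.3e-15). WRKY29 was at 1.08, 0.955 and 0.681 RPKM at 0 h and 64.4, 78.2 and 65.8 at 3 h (log2 change 5.21 ± 0.14 SE, adjusted p 9.3e-14). WRKY40 rose from 4.92 ± 2.06 to 272 ± 15.6 RPKM (5.58) and WRKY75 from 6.07 ± 0.711 to 109 ± 14.3 RPKM (3.95). WRKY60 was the member that fell, with 51.7, 41 and 19.5 RPKM at 0 h and 14.8, 14.1 and 11.2 at 3 h. WRKY53 belonged to the few genes with a peak at 3 h (below). Of 10 tested C2H2 zinc-finger genes 9 were higher, 3 of the 10 being tested through 3 h libraries alone, led by ZAT11 (0.278, 0.44 and 0.293 RPKM at 0 h and 44.9, 59.8 and 52.4 at 3 h; 5.31). Stress NAC factors gave 14 higher and 3 lower of 20, with ORS1 among the lower ones, from 87 ± 11.1 to 35.4 ± 1.64 RPKM. NAC042 was at 3.72, 3.32 and 3.03 RPKM at 0 h and 98.4, 100.3 and 102 at 3 h (log2 change 4.54 ± 0.08 SE, adjusted p 1.1e-15). AP2/ERF factors gave 14 higher and 4 lower of 20, of which 1 was tested through 3 h and 3 through 0 h libraries alone. ERF115, an activator of stem cell division after damage in roots, rose from 2.53 ± 1.05 to 39.6 ± 1.57 RPKM (3.57), and the cold-response genes CBF2 and CBF3 fell by 1.40 and 1.32 on the log2 scale.

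Surface immunity genes detect damage and microbial molecules: PROPEP genes encode the precursors of Pep peptides, PEPR1 and PEPR2 their receptors, FLS2 and EFR the receptors of bacterial flagellin and EF-Tu, and RBOHD the oxidase of the immune burst. Of 27 tested members 25 were higher, 1 was lower and 22 rose by at least 2-fold (median 1.98). Of the 27, 4 were tested through 3 h and 1 through 0 h libraries alone. PROPEP3 was at 0.496, 1.84 and 0.524 RPKM at 0 h and 136, 183 and 145 at 3 h (log2 change 6.37 ± 0.35 SE, adjusted p 8.2e-10). PROPEP2 rose from 0.957 ± 0.548 to 49.7 ± 1.87 RPKM and PROPEP1 from 4.61 ± 1.17 to 64.5 ± 5.82 RPKM, so that all 3 peptide precursors in this list were higher. The receptors PEPR1 and PEPR2 rose less, from 12.6 ± 0.97 to 49.8 ± 3.34 RPKM (1.90) and from 2.82 ± 0.249 to 12.2 ± 0.415 RPKM (1.79). FLS2 was at 6.43, 4.24 and 3.99 RPKM at 0 h and 52.1, 57 and 52.1 at 3 h (log2 change 3.24 ± 0.13 SE, adjusted p 6.3e-12), and its partner BAK1 rose from 36 ± 1.04 to 86.1 ± 3.08 RPKM (1.23). NHL10, a marker of flagellin responses, rose from 1.08 ± 0.733 to 71.9 ± 13 RPKM (5.18). The wall-associated kinase gene WAK2 was lower, at 1.5, 1.86 and 1.86 RPKM at 0 h and 0.311, 0.103 and 0.465 at 3 h. Of the 27, 24 were lower at 6 h than at 3 h. Of 15 salicylic acid genes 10 were higher and 2 lower (1 without 0 h replicate 3 or 3 h replicate 1), with 3 tested through 3 h libraries alone. Among the lower was ICS1, the main synthesis gene, from 2.21 ± 0.455 to 1.23 ± 0.0354 RPKM (-0.52). DLO1, a salicylic acid hydroxylase gene, was higher at 0.192, 0 and 0 RPKM at 0 h and 14.3, 12.4 and 16.8 at 3 h. The salicylic acid response genes PR1, PR2 and PR5 were listed at 0 in all 6 libraries.

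The W-box stands in many of these upstream regions. Sequences of 250 bases before the annotated gene start were read from RefSeq's TAIR10.1 assembly for 18602 of the tested genes and searched on both strands. The core TTGAC occurred in 45.1% of all regions, in 58.3% of those of genes at least 2-fold higher, in 41.1% of those at least 2-fold lower and in 66.7% of those of the 180 rises of at least 16-fold. The share was 74.1% for WRKY genes and for surface immunity genes (20 of 27 each), and over 12 lists searched it went from 28.0% for G2 and M phase genes to 75.0% for tryptophan synthesis. These are counts of letters in a window and carry no test. Regions are shown for PROPEP3 (chr5:25939312-25939561, plus strand) and WRKY53 (chr4:12393983-12394232, minus strand), with each core or its reverse complement in capitals (4 and 2 matches), because both genes rose and the core repeats near their starts.
PROPEP3: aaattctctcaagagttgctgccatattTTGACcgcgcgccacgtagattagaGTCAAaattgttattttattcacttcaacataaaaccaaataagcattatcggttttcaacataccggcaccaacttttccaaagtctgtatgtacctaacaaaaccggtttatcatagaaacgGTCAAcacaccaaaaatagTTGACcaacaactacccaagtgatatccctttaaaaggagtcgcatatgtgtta
WRKY53: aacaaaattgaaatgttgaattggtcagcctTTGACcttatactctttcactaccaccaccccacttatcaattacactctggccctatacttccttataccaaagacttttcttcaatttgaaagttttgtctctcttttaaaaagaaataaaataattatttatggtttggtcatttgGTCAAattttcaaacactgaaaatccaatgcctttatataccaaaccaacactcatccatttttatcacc

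Genes of indole metabolism were higher along most of the pathway, from tryptophan synthesis to defence products. Tryptophan is the precursor of indole glucosinolates and of camalexin, the sulfur-containing antimicrobial compounds of Arabidopsis. All 8 tryptophan synthesis genes were higher, 7 of them by at least 2-fold (median 2.59). TSA1, tryptophan synthase alpha, was at 59.7, 48.4 and 47.2 RPKM at 0 h and 713, 588 and 761 at 3 h (log2 change 3.70 ± 0.14 SE, adjusted p 2.9e-12). AT2G04400, indole-3-glycerol phosphate synthase, was at 25.8, 22 and 21.7 RPKM at 0 h and 288, 245 and 319 at 3 h (log2 change 3.56 ± 0.11 SE, adjusted p 4.1e-13). ASB1, a subunit of the entry enzyme anthranilate synthase, rose from 29.4 ± 3.73 to 188 ± 19.9 RPKM, and PAI1 changed least, from 8.02 ± 1.05 to 10.3 ± 1.28 RPKM (0.33). Without 0 h replicate 3, the lowest 0 h library for each of the 8, 7 were called. Against 1 h, 6 of the 8 were higher and ASB1 was lower. The region before ASB1 (chr1:8839610-8839859, minus strand) held 3 W-box cores, in capitals, and 6 of the 8 genes had at least 1 (75.0%).
ASB1: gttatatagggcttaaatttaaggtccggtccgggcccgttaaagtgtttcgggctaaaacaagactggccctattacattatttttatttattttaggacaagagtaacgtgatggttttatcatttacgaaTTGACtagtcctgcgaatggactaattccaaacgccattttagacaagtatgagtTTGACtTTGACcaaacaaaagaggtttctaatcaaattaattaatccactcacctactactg

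Further along, 22 of 25 tested camalexin and indole glucosinolate genes were higher (median 2.68), with 3 of the 25 tested through 3 h libraries alone. Those not called were MYB34 (0.25), CYP81F1 (0.19) and GSTF9 (0.02). CYP79B2, which turns tryptophan into indole-3-acetaldoxime, was at 76.1, 70.2 and 34.7 RPKM at 0 h and 484, 409 and 536 at 3 h (log2 change 3.03 ± 0.27 SE, adjusted p 1.7e-07). Its near relative CYP79B3 rose less, from 98.3 ± 22.8 to 165 ± 25.7 RPKM (0.76). GGP1, a peptidase that processes the glutathione conjugate, was at 112, 109.9 and 84.9 RPKM at 0 h and 1652, 1776 and 1764 at 3 h (log2 change 4.08 ± 0.11 SE, adjusted p 9.8e-14). CYP81F2, which hydroxylates the indole ring of the glucosinolate, was at 1.59, 2.74 and 4.5 RPKM at 0 h and 117, 122 and 119 at 3 h (log2 change 5.001 ± 0.23 SE, adjusted p 8.0e-11). IGMT3, one of the methyltransferases of the following step, was at 1.6, 2.94 and 4.04 RPKM at 0 h and 249, 292 and 279.7 at 3 h (log2 change 6.20 ± 0.25 SE, adjusted p 1.9e-11). Groups were far apart in all 3 genes. The IGMT3 relatives IGMT1 and IGMT4 started higher, and rose from 87.2 ± 33.9 to 540.2 ± 13.3 RPKM and from 72.1 ± 13.9 to 605 ± 29.9 RPKM, while IGMT5 rose from 283 ± 94.1 to 468 ± 33.4 RPKM. Coding sequences of IGMT1 to IGMT4 are 92.5% to 97.4% identical, so their separate levels are uncertain. MYB51, an activator of the pathway, rose from 32.4 ± 3.82 to 406 ± 17.7 RPKM and MYB122 from 2.71 ± 1.05 to 28.9 ± 3.66 RPKM. CYP71A12 of the camalexin branch was at 0.0286, 0 and 0.151 RPKM at 0 h and 14.4, 15.2 and 16 at 3 h, and AT1G26380, annotated as a FAD-binding berberine family protein, rose from 0.169 ± 0.105 to 40.02 ± 1.32 RPKM. CYP71A12 shares 90.4% of its coding bases with AT2G30770, so its own level is uncertain. Aliphatic glucosinolate genes, which use methionine in place of tryptophan, gave 2 higher and 6 lower of 12 (median -0.52). Of all tested genes, 28.6% were higher and 41.1% lower. SOT17, a sulfotransferase gene, rose from 11.4 ± 1.47 to 115 ± 16.1 RPKM, whereas MAM1, MAM3 and CYP83A1 of chain elongation and core synthesis changed by -1.32, -1.21 and -1.50.

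Sulfate and glutathione genes were mostly higher too. Of 19 tested genes of sulfate assimilation and glutathione 15 were higher, all by at least 2-fold, and 4 lower, also without 0 h replicate 3. SULTR1;2, a sulfate importer, was at 5.87, 6.69 and 5.97 RPKM at 0 h and 58.1, 78.6 and 53.8 at 3 h (log2 change 3.15 ± 0.37 SE, adjusted p 3.2e-06). APR1, the reductase that controls the flux, was at 27.2, 27.6 and 19.5 RPKM at 0 h and 259, 294 and 268 at 3 h (log2 change 3.43 ± 0.28 SE, adjusted p 5.3e-08). APK2, which makes the active sulfate for sulfation, rose from 33.1 ± 12.1 to 278 ± 48 RPKM and the glutathione synthesis genes GSH1 and GSH2 from 227 ± 26.3 to 490.4 ± 8.56 RPKM and from 54.7 ± 2.05 to 179 ± 0.857 RPKM. The ATP sulfurylase genes went in both directions, with APS1 higher (116 ± 17.2 to 677 ± 29.5 RPKM) and APS4 lower (230.4 ± 13.9 to 87.9 ± 6.55 RPKM). Glutathione transferases, which attach glutathione to reactive molecules, gave 21 higher of 23, with GSTU9 (0.22) and GSTU27 (-0.38) not called. GSTF6 was at 15.7, 18.3 and 7.32 RPKM at 0 h and 1417, 1200.2 and 1370.0 at 3 h (log2 change 6.58 ± 0.26 SE, adjusted p 2.0e-11). GSTU12 was at 1.66, 2.6 and 1.64 RPKM at 0 h and 206, 213 and 211 at 3 h (log2 change 6.17 ± 0.19 SE, adjusted p 6.8e-13). GSTU4 was at 6.39, 8.44 and 4.07 RPKM at 0 h and 314, 375 and 401 at 3 h (log2 change 5.68 ± 0.17 SE, adjusted p 6.3e-13). GSTF6 and GSTF7 share 94.3% of coding bases and cannot be separated with confidence. GSTU25 spread widely at 0 h (30.8, 25.1 and 2.67 RPKM), and its log2 change was 3.09 with all libraries and 2.098 without 0 h replicate 3. The TGA-box TGACG occurred upstream of 12 of 23 glutathione transferase genes (52.2%), against 19.3% of all tested genes, and can share bases with TTGAC. The share was nearly as high among circadian clock genes (8 of 17, 47.1%), most of which were lower at 3 h.

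**Figure D3:**
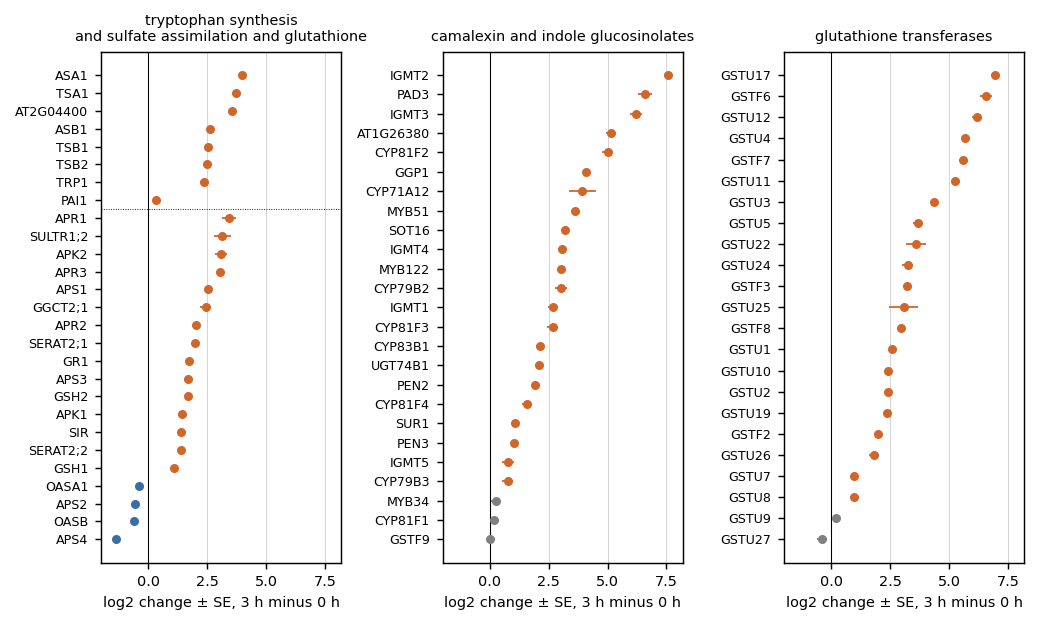
Log2 change from 0 h to 3 h with its standard error for each tested member of the tryptophan, sulfate and glutathione lists (left, divided by the dotted line), of camalexin and indole glucosinolate genes (middle) and of glutathione transferases (right). Orange marks genes called higher, blue lower and grey neither, and IGMT2 and GSTU17 lie furthest to the right.

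Phenylpropanoids, the precursors of lignin and many phenolics, gave 21 higher and 2 lower of 25 (median 1.81; 21 and 3 without 0 h replicate 3), and 21 of the 25 were higher than at 1 h. CCR2, a cinnamoyl-CoA reductase associated with defence, was at 8.12, 10.13 and 8.33 RPKM at 0 h and 362, 434 and 442 at 3 h (log2 change 5.39 ± 0.10 SE, adjusted p 4.3e-15). CCR1, the developmental form, rose from 153 ± 11.7 to 309 ± 13.4 RPKM (1.01). The entry ligases 4CL1 and 4CL5 rose from 171 ± 11.2 to 904 ± 109 RPKM and from 5.64 ± 0.995 to 43.3 ± 1.49 RPKM. Among late lignin genes, the laccase gene LAC4 fell from 56.6 ± 2.25 to 37.7 ± 4.17 RPKM (-0.58), and LAC17 (-0.35) and CAD4 (-0.16) were not called. PAL3 was lower as well, from 8.05 ± 1.01 to 3.49 ± 0.37 RPKM. Of 7 suberin genes 1 was called, the regulator MYB41, higher at 0.0978, 0 and 0 RPKM at 0 h and 2.47, 1.94 and 2.84 at 3 h. MYB41 was tested through 3 h libraries alone and so had to be high there. Cuticular wax genes went mainly down, 4 higher and 9 lower of 13. KCS6, the elongase of wax precursors, was at 741, 692 and 647 RPKM at 0 h and 178, 211 and 226 at 3 h (log2 change -1.76 ± 0.10 SE, adjusted p 2.8e-10). WSD1, a wax ester synthase, was at 28.5, 22.4 and 7.78 RPKM at 0 h and 1.09, 1.77 and 0.463 at 3 h (log2 change -3.16 ± 0.38 SE, adjusted p 2.5e-06). CER2 was higher, at 33.7, 32.5 and 11.7 RPKM at 0 h and 71.3, 79.8 and 100.4 at 3 h (log2 change 1.78 ± 0.33 SE, adjusted p 2.4e-04). Without 0 h replicate 3, WSD1 changed by -3.69 and CER2 by 1.301. CER4, at 4.83, 6.05 and 0.0746 RPKM at 0 h and 0.15, 0.298 and 0.0747 at 3 h, had overlapping groups, and its call (adjusted p 0.03) was lost when any library other than 0 h replicate 3 was left out. Without 0 h replicate 3 the wax counts were the same, 4 and 9.

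In ethylene synthesis ACS2, an ACC synthase of the committed step, was at 1.48, 1.22 and 0.128 RPKM at 0 h and 70.5, 78.9 and 75.1 at 3 h (log2 change 5.36 ± 0.25 SE, adjusted p 6.6e-11). ACS8 rose from 1.36 ± 1.07 to 10.4 ± 1.09 RPKM. Of 18 tested ethylene genes 11 were higher and 2 lower. CTR1, the brake on the pathway, was higher (32.1 ± 0.461 to 75.3 ± 2.25 RPKM) and EIN2, its central transducer, lower (41.8 ± 4.15 to 24.9 ± 1.36 RPKM; -0.72). Calcium sensors gave 13 higher and 3 lower of 18, with TCH3 higher, from 49.3 ± 17.9 to 659.8 ± 72.8 RPKM. The calmodulin-like CML41 was at 1.52, 1.7 and 1.08 RPKM at 0 h and 32.2, 31.4 and 20.6 at 3 h (log2 change 3.56 ± 0.24 SE, adjusted p 5.0e-09). Of 15 genes of reactive oxygen handling 9 were higher and 5 lower. MDAR3, which regenerates ascorbate, was at 10.02, 10.9 and 4.67 RPKM at 0 h and 561, 688 and 592 at 3 h (log2 change 6.08 ± 0.30 SE, adjusted p 3.5e-10), after a mean of 1464 RPKM at 1 h. The peroxidase AT5G39580 rose from 3.07 ± 1.32 to 189 ± 43.9 RPKM. Abscisic acid genes were divided, 11 higher and 5 lower of 24. KIN2, a cold and drought response gene, was at 7.43, 6.37 and 2.65 RPKM at 0 h and 284, 285 and 279 at 3 h (log2 change 5.54 ± 0.29 SE, adjusted p 4.7e-10), and the dehydrin XERO2 rose from 23.51 ± 6.46 to 631 ± 73.5 RPKM. ABF3, a transcription factor of the response, fell from 111 ± 8.13 to 29.4 ± 2.55 RPKM and RD29B from 18.5 ± 4.65 to 5.89 ± 3.71 RPKM. KIN1 and KIN2 share 95.0% of coding bases, so their separate levels are uncertain.

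Most chaperone genes were higher. Of 24 tested heat shock genes 19 were higher and 2 lower (median 2.49; 4 lower without 0 h replicate 3), and 21 were below their 1 h level. Of the 24, 5 were tested through 3 h libraries alone. The small heat shock protein HSP17.6II was at 0.412, 0.182 and 0.181 RPKM at 0 h and 76.3, 62.2 and 68.3 at 3 h (log2 change 5.80 ± 0.31 SE, adjusted p 7.0e-10). HSP17.4 was at 0.866, 1.23 and 1.05 RPKM at 0 h and 109, 95.1 and 108 at 3 h (log2 change 5.68 ± 0.29 SE, adjusted p 4.2e-10). HSP90.1 rose from 6.56 ± 1.66 to 119 ± 2.11 RPKM. HSP101, the disaggregase, had means of 5.62, 458, 33.8 and 75.2 RPKM at 0, 1, 3 and 6 h. HSFA7A was lower, from 64.4 ± 19.5 to 13.1 ± 2.54 RPKM (-2.19). HSP21 was listed at 0 at 0 h and at 3.69, 5.7 and 3.81 RPKM at 3 h. Chaperones of the endoplasmic reticulum gave 19 higher and 2 lower of 23 (median 1.05; 17 higher without 0 h replicate 3, and 1 lower without 0 h replicate 1 or 3, or 3 h replicate 1 or 3), with 17 above 1 h and 20 still below 6 h. ERDJ3A was at 2.2, 2.75 and 1.81 RPKM at 0 h and 20.06, 21.6 and 21 at 3 h (log2 change 2.76 ± 0.21 SE, adjusted p 1.4e-08). ERO1 rose from 2.35 ± 0.748 to 20.12 ± 1.08 RPKM and BIP2 from 66.9 ± 16 to 229 ± 23.3 RPKM. BIP3 was at 0.205, 0 and 0 RPKM at 0 h and 1.03, 0.722 and 2.05 at 3 h and reached a mean of 199 RPKM at 6 h. All 8 tested genes of mitochondrial stress were higher, and 7 without 0 h replicate 3, while 2 of the 8 were tested through 3 h libraries alone. NDB2 rose from 9.85 ± 3.65 to 147 ± 11.9 RPKM and AOX1A, the alternative oxidase, from 24.6 ± 8.59 to 84.9 ± 6.63 RPKM. AOX1D was listed at 0 at 0 h and at 11.6, 13.1 and 12.4 RPKM at 3 h.

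Protein synthesis and breakdown differed. Ribosome biogenesis genes process ribosomal RNA and assemble subunits in the nucleolus: 26 of 27 were higher at 3 h (median 0.98), and all 27 were above their 1 h level, whose median lay at -0.46 against 0 h. RID2, a methyltransferase needed for shoot regeneration in culture, was at 12.2, 10.7 and 11.1 RPKM at 0 h and 43, 38.8 and 41.1 at 3 h (log2 change 1.77 ± 0.10 SE, adjusted p 2.1e-10). SWA1 and ENP1 rose from 8.86 ± 0.469 to 23.7 ± 2.42 RPKM and from 20.04 ± 0.995 to 51.3 ± 3.36 RPKM, and MTR4, an RNA helicase of the exosome, was not called (-0.05). Subunits of the 26S proteasome gave 8 higher and 8 lower of 34, none by 2-fold (median -0.05). Median centring turned these counts to 11 and 5 and quantile scaling to 5 and 14, so their balance depends on the scaling. Higher calls numbered 4 without 0 h replicate 3 and 5 without 3 h replicate 1. All 34 were below their 6 h level and 25 above 1 h: RPT2A, an ATPase subunit, had means of 75.2, 55.9, 86.4 and 168 RPKM at 0, 1, 3 and 6 h. The site II element TGGGCC, a motif of genes for protein synthesis and growth, occurred upstream of 51.9% of ribosome biogenesis genes (14 of 27), 17% of all tested genes and 10.3% of genes at least 2-fold higher. It was nearly as common upstream of S phase genes (9 of 19, 47.4%), most of which were lower at 3 h, and of heat shock genes (10 of 24, 41.7%). Regions are shown for AT5G15550, annotated as a WD40 repeat protein, which rose from 15 ± 1.21 to 31.2 ± 1.83 RPKM (chr5:5062145-5062394, minus strand, 3 matches) and for RID2 (chr5:23204127-23204376, plus strand, 1 match), to show where the element lies (matches and reverse complements in capitals).
AT5G15550: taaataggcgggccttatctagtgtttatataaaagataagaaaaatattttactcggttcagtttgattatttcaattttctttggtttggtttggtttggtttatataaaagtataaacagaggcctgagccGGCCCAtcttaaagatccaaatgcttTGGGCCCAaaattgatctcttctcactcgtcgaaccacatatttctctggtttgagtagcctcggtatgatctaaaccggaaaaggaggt
RID2: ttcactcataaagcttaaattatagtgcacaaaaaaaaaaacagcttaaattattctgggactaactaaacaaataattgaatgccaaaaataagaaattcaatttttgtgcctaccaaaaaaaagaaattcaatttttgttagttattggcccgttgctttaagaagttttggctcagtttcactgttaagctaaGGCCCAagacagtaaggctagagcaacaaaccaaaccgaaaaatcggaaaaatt

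**Figure D4:**
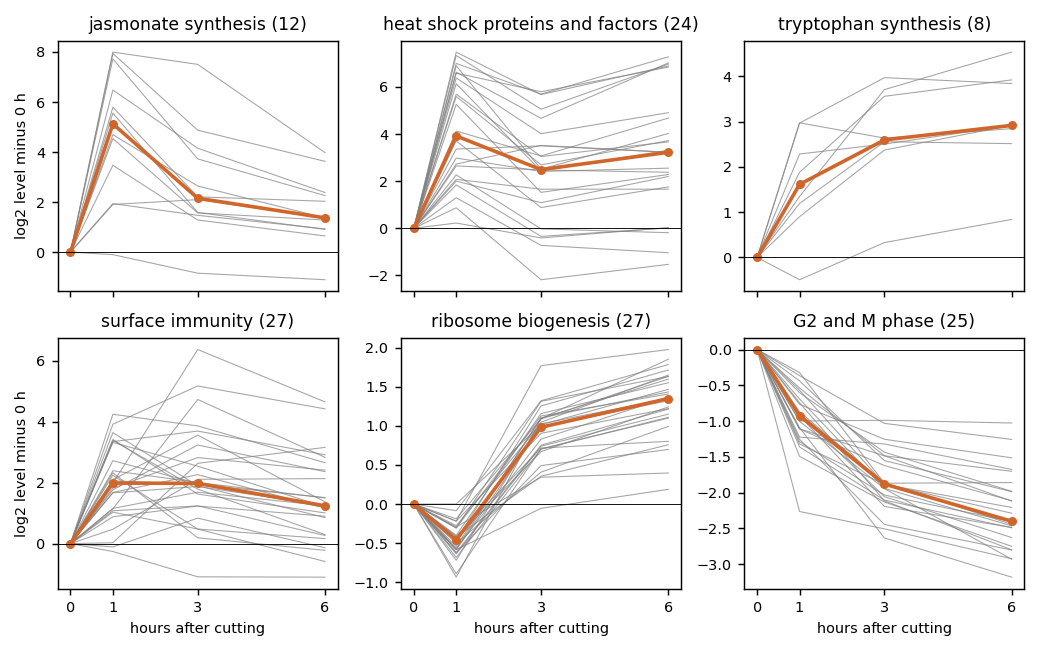
Log2 level relative to 0 h at 0, 1, 3 and 6 h for 6 gene lists, with the number of tested members in brackets. Grey lines are genes and the orange line is the median of the list, which for jasmonate synthesis is highest at 1 h (5.13), for ribosome biogenesis is -0.46 at 1 h and 0.98 at 3 h, and for G2 and M phase is lower at each later time.

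Cell division genes were lower. All 25 tested G2 and M phase genes fell, 24 by at least 2-fold (median -1.88), with summed levels of 283 to 326 RPKM at 0 h and 50.8 to 72.2 RPKM at 3 h. KNOLLE, the syntaxin that builds the new cell plate, was at 41.1, 44 and 38.6 RPKM at 0 h and 6.99, 6.41 and 4.28 at 3 h (log2 change -2.64 ± 0.19 SE, adjusted p 5.0e-09), and the cyclin CYCA1;1 at 11.8, 12.2 and 10.7 RPKM at 0 h and 1.19, 1.34 and 1.1 at 3 h (log2 change -2.51 ± 0.15 SE, adjusted p 7.5e-10). Cyclin genes CYCB1;2 and CYCB1;3 fell from 15.7 ± 1.35 to 2.86 ± 0.8 RPKM and from 10.5 ± 1.18 to 1.53 ± 0.352 RPKM. In S phase, 18 of 19 genes were lower and the transcription factor gene E2FC, an inhibitor of division, was higher, from 7.88 ± 0.447 to 10.6 ± 1.01 RPKM (0.39). CYCD3;1, a cyclin that drives entry into the cycle, was at 42.6, 45.6 and 48.8 RPKM at 0 h and 8.87, 8.81 and 9.84 at 3 h (log2 change -2.20 ± 0.11 SE, adjusted p 8.0e-11). TSO2, a subunit of the enzyme that makes deoxynucleotides, was at 60.0, 61.5 and 52.9 RPKM at 0 h and 13.5, 14.7 and 11.8 at 3 h (log2 change -2.05 ± 0.09 SE, adjusted p 1.5e-11). The helicase genes MCM5 and MCM6 fell from 8.29 ± 0.553 to 3.54 ± 0.108 RPKM and from 5.33 ± 0.418 to 1.47 ± 0.449 RPKM. Groups did not overlap in any of the 44 genes of both lists, which is to be read against 72.0% of all tested genes. The MSA core AACGG, bound by MYB3R factors in G2 and M phase genes, occurred upstream of 60.0% of G2 and M phase genes (15 of 25) and of 22.0% of all tested genes, but also of 44.4% of ribosome biogenesis genes (12 of 27), most of which rose. The E2F site TTTCCCGC occurred upstream of 26.3% of S phase genes (5 of 19) and of 0.575% of all, and in the other lists searched in 1 heat shock gene. For these motifs, regions are shown for CYCB1;2 (chr5:1861704-1861953) and CYCB1;3 (chr3:3627274-3627523) with AACGG or its reverse complement in capitals, and for MCM5 (chr2:3527501-3527750) and MCM6 (chr5:18010668-18010917) with the E2F site in capitals on either strand, all on minus strands.
CYCB1;2: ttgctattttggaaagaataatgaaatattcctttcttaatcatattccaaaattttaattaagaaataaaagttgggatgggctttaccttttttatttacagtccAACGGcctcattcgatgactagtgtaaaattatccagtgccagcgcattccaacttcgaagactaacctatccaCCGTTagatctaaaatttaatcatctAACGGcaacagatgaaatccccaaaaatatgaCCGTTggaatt
CYCB1;3: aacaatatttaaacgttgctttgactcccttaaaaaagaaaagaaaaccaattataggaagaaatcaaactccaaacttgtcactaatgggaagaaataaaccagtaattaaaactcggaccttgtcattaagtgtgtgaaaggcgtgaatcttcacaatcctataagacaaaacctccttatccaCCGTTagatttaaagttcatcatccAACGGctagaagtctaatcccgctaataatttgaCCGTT
MCM5: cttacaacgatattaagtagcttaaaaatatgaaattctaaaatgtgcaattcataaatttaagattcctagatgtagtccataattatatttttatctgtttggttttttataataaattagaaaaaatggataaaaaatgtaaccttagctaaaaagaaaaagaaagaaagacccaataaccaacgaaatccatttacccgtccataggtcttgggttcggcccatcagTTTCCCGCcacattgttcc
MCM6: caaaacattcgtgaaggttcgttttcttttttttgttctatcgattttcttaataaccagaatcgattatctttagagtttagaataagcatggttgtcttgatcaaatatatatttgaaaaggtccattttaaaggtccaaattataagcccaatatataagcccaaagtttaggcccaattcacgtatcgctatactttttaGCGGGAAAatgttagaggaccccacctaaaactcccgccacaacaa

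Response genes of auxin, the hormone that flows from the shoot tip, were mostly lower. Of 19 tested members 12 were lower and 1 higher (median -0.95), with 3 tested through 0 h and 1 through 3 h libraries alone. IAA3, a repressor gene induced by auxin, was at 91.7, 94.1 and 80.6 RPKM at 0 h and 11.4, 13.2 and 11.1 at 3 h (log2 change -2.80 ± 0.15 SE, adjusted p 1.5e-10), and all 3 h libraries were lower than all 0 h libraries. IAA17 was at 196, 169 and 52.4 RPKM at 0 h and 34.2, 40.9 and 22.3 at 3 h (log2 change -1.90 ± 0.43 SE, adjusted p 0.0014). IAA6 was at 8.2, 11.5 and 0.46 RPKM at 0 h and 0, 0.307 and 0 at 3 h (log2 change -2.34 ± 0.59 SE, adjusted p 0.0026). In both, 0 h replicate 3 was far below the other 0 h libraries and close to 3 h, and without it the changes were -2.50 and -3.30. IAA19 was at 33.7, 36.1 and 1.84 RPKM at 0 h and 13.3, 13.4 and 12.2 at 3 h, with that library below 3 h and the others above. It was not called (log2 change -0.14 ± 0.72 SE, adjusted p 0.87). Without the library its log2 change was -1.36 (adjusted p 3.0e-04). IAA20 was listed at 0 at 0 h and at 1.37, 1.55 and 1.36 RPKM at 3 h, and SAUR19 and SAUR24 were listed at 0 at 3 h. Without 0 h replicate 3 the list gave 14 lower and 1 higher, with a median of -1.36. Synthesis and transport genes gave 14 lower and 3 higher of 19. The efflux carrier PIN3 fell from 45.2 ± 7.5 to 12.4 ± 0.498 RPKM, the kinase gene WAG2 from 34.2 ± 14.7 to 1.43 ± 0.596 RPKM (-3.78) and the synthesis gene YUC6 from 13 ± 2.37 to 2.48 ± 0.142 RPKM. Higher were PID, a kinase that directs PIN proteins (5.19 ± 1.9 to 19.1 ± 0.982 RPKM), the synthesis gene TAA1 (2.07 ± 0.209 to 5.87 ± 0.19 RPKM) and YUC8 (0.452 ± 0.273 to 1.93 ± 0.182 RPKM).

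Genes of gibberellin and brassinosteroid, both growth hormones, gave 4 higher and 11 lower of 19, and 5 of the 19 were tested through 0 h libraries alone. GA2OX6, which inactivates gibberellin, was at 6.34, 6.28 and 4.37 RPKM at 0 h and 126, 157 and 130.2 at 3 h (log2 change 4.39 ± 0.17 SE, adjusted p 6.5e-12). GA2OX2, of the same enzyme class, was at 6.74, 6.97 and 7.36 RPKM at 0 h and 84.7, 64.2 and 82 at 3 h (log2 change 3.27 ± 0.14 SE, adjusted p 9.6e-12). The synthesis genes GA20OX1 and GA20OX2 fell from 3.36 ± 2.32 to 0.133 ± 0.0571 RPKM and from 2.11 ± 0.454 to 0.122 ± 0.139 RPKM. Brassinosteroid synthesis gene ROT3 fell from 106 ± 5.2 to 28.4 ± 4.08 RPKM, CYP90D1 rose from 13.7 ± 1.21 to 32.8 ± 3.81 RPKM, and BAS1, which inactivates the hormone, fell from 12.7 ± 1.76 to 1.58 ± 0.547 RPKM. Cytokinin genes gave 8 higher and 8 lower of 24, with 2 tested through each time's libraries alone. These counts are near the shares of all tested genes (28.6% higher and 41.1% lower). LOG7, which releases active cytokinin, was at 12, 15.5 and 13.2 RPKM at 0 h and 152, 224 and 182 at 3 h (log2 change 3.67 ± 0.13 SE, adjusted p 1.5e-12). LOG5 rose from 8.2 ± 0.16 to 29.1 ± 3.78 RPKM and CYP735A2, which makes trans-zeatin, from 58.8 ± 14.4 to 198 ± 48.9 RPKM. The synthesis genes IPT3, IPT5 and IPT7 and the response regulator ARR9 changed by -0.76, -0.89, -0.94 and -1.32.

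Genes of wall loosening went in both directions, whereas those of cellulose synthesis and water channels were mostly lower. Of 9 alpha-expansins, proteins that loosen the wall, 5 were lower and 3 higher, and 2 of the 9 were tested through 0 h libraries alone. The lower count was 2 without 0 h replicate 1 or 2 or with only the 6 libraries fitted, and 3 without 3 h replicate 3 or with a pseudocount of 0.1. Their summed level was higher at 3 h, at 444 to 513 RPKM against 297 to 390.4 RPKM at 0 h. EXPA15 was at 37.6, 32.2 and 34.7 RPKM at 0 h and 5.09, 5.72 and 3.66 at 3 h (log2 change -2.63 ± 0.16 SE, adjusted p 5.9e-10). EXPA6 was at 13.2, 14.2 and 16.1 RPKM at 0 h and 1.76, 2.2 and 0.92 at 3 h (log2 change -2.59 ± 0.16 SE, adjusted p 1.2e-09). By contrast, EXPA10 rose from 8.56 ± 3.59 to 70.8 ± 8.68 RPKM and EXPA1 from 22.2 ± 6.62 to 119.6 ± 12.9 RPKM. EXPA11 was at 23.62, 25.8 and 0.559 RPKM at 0 h and 0.562, 1.23 and 0.224 at 3 h, so 0 h replicate 3 was within the 3 h range. Its adjusted p was 0.015, 0.073 without 0 h replicate 1, 0.076 without 0 h replicate 2 and 0.084 with only the 6 libraries fitted. Of 13 xyloglucan enzyme genes 5 were lower and 4 higher, close to the shares of all tested genes (41.1% and 28.6%), and their summed level went from 2145 to 3137 RPKM at 0 h to 624 to 935 RPKM at 3 h. Of these genes 8 were lower without 0 h replicate 3 and 2 higher without 3 h replicate 2. XTH24 was at 902, 1017 and 1319.9 RPKM at 0 h and 114, 129.8 and 97.2 at 3 h (log2 change -3.23 ± 0.13 SE, adjusted p 1.0e-11). XTH4 was at 597, 636 and 234 RPKM at 0 h and 51, 71.5 and 36.6 at 3 h (log2 change -3.10 ± 0.35 SE, adjusted p 2.6e-06). XTH17, at 207, 213 and 7.76 RPKM at 0 h and 18.4, 32.8 and 6.93 at 3 h, was not called with all libraries (adjusted p 0.12), and its log2 change without 0 h replicate 3 was -3.61 (adjusted p 0.0028). XTH23, a touch-induced gene, was higher, from 8.82 ± 5.21 to 55.2 ± 7.63 RPKM. Without that library the expansin counts were 6 lower and 3 higher. Cellulose synthesis genes gave 8 lower of 10, and 9 without 0 h replicate 3. CESA2 changed most, at 115, 87.2 and 55.2 RPKM at 0 h and 17.35, 18.9 and 13.4 at 3 h (log2 change -2.26 ± 0.20 SE, adjusted p 9.3e-08). The secondary-wall subunits CESA4 (-0.26) and CESA8 (-0.32) were not called. Aquaporins, the water channels, gave 14 lower and 4 higher of 21 (median -1.64), with summed levels of 12268 to 13433 RPKM at 0 h and 4832 to 5037 RPKM at 3 h. PIP1;3 of the plasma membrane was at 786, 932 and 1001 RPKM at 0 h and 134, 139 and 129 at 3 h (log2 change -2.74 ± 0.11 SE, adjusted p 7.1e-12). TIP2;3 of the vacuole fell from 372 ± 72.5 to 25.1 ± 3.97 RPKM. TIP2;1 rose from 249.5 ± 80.2 to 1172 ± 60.2 RPKM, whereas TIP1;2, also of the vacuole, fell from 4479.6 ± 413 to 1105 ± 41.6 RPKM.

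Carbon starvation genes, which plants switch on when sugar is short, had the lowest median of the lists (-2.47). Of 23 tested 19 were lower and 1 higher, and without 0 h replicate 3 the counts were 18 and 1. SEN1, a marker of darkness and starvation, was at 234, 311 and 559 RPKM at 0 h and 9.11, 10.2 and 9.46 at 3 h (log2 change -5.03 ± 0.34 SE, adjusted p 9.4e-09). DIN10, annotated as a raffinose synthase, was at 147, 229 and 388 RPKM at 0 h and 13.6, 16.2 and 11.7 at 3 h (log2 change -4.01 ± 0.29 SE, adjusted p 1.9e-08). In both, all 0 h libraries were above 3 h although they spread more than 2-fold among themselves, with replicate 3 the highest, and without it the changes were -4.68 and -3.65. DRM1 fell from 377 ± 109 to 32.4 ± 2.91 RPKM and the amino acid catabolism gene DIN4 from 52.3 ± 18.5 to 4.04 ± 1.22 RPKM. ASN1, asparagine synthetase, was at 7.19, 30.2 and 48.1 RPKM at 0 h and 2.69, 4.78 and 6.96 at 3 h (log2 change -2.07 ± 0.55 SE, adjusted p 0.0038), and 0 h replicate 1 was only just above the highest 3 h library. The member that rose was GDH2, from 361 ± 47.7 to 518 ± 10.6 RPKM. Of 12 tested sugar transport genes 6 were higher, 2 lower and 4 not called (median 0.39). CWINV1, the invertase that splits sucrose in the wall, was at 12.7, 12.8 and 8.68 RPKM at 0 h and 822, 839 and 823 at 3 h (log2 change 6.08 ± 0.17 SE, adjusted p 3.1e-13). The importers SUC1 and STP13 rose from 13.7 ± 3.16 to 212 ± 31 RPKM and from 37.6 ± 12.6 to 402 ± 3.79 RPKM. The exporters SWEET11 and SWEET12 fell, SWEET11 being at 493, 502 and 667 RPKM at 0 h and 45.9, 57 and 48.9 at 3 h (log2 change -3.42 ± 0.16 SE, adjusted p 4.8e-11). Among 10 tested amino acid transport genes 5 were higher and 4 lower, with AAP6 rising from 2.5 ± 0.91 to 28.2 ± 3.54 RPKM and GDU4, a regulator of glutamine export, falling from 68.2 ± 9.95 to 4.19 ± 0.332 RPKM (-3.73).

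Clock and dark-growth regulators were mostly lower, 13 of 17 clock genes among them. RVE1 was at 11.8, 17.5 and 16.4 RPKM at 0 h and 2.99, 2.08 and 2.5 at 3 h (log2 change -2.19 ± 0.13 SE, adjusted p 7.4e-10). CCA1, a morning factor, was at 16.9, 21.1 and 19 RPKM at 0 h and 5.85, 6.51 and 7.23 at 3 h (log2 change -1.41 ± 0.15 SE, adjusted p 5.0e-07). In all, 13 of the 17 were below their 1 h level. As these groups hold no uncut stems of the later hour, time of day and time after the cut cannot be told apart. LNK1, GI, ELF4 and LNK2 were not called. Of 14 dark-growth regulators 8 were lower and 3 higher, against 41.1% and 28.6% of all tested genes. PIF4, which drives hypocotyl elongation, was at 12.3, 16.9 and 15.9 RPKM at 0 h and 2.41, 2.98 and 2.4 at 3 h (log2 change -2.15 ± 0.15 SE, adjusted p 4.5e-09). PIF5 fell from 9.16 ± 0.59 to 2.56 ± 0.566 RPKM. HYH, a relative of the light-response factor HY5, was at 1.37, 2.58 and 1.55 RPKM at 0 h and 15, 22.2 and 14.6 at 3 h (log2 change 2.69 ± 0.21 SE, adjusted p 1.9e-08). PIF3 rose from 26.4 ± 3.27 to 39.4 ± 5.81 RPKM, and HY5 was not called (10.7, 34.9 and 7.9 RPKM at 0 h, with replicate 2 far above the others).

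Regulators of callus and reprogramming gave 9 higher and 5 lower of 17, with 2 tested through 3 h libraries alone, WOX11 among them. LBD16, a factor of lateral root and callus initiation, was at 7.77, 9 and 3.57 RPKM at 0 h and 33.9, 43.2 and 40.5 at 3 h (log2 change 2.44 ± 0.22 SE, adjusted p 9.9e-08), and WOX5, of root stem cells, rose from 0.823 ± 0.512 to 5.44 ± 0.663 RPKM. WOX11, of new root founder cells, rose from 0.166 ± 0.148 to 1.61 ± 0.41 RPKM. PXY, the receptor of vascular cambium cells, was lower, at 58.1, 59.4 and 65.9 RPKM at 0 h and 7.95, 7.08 and 6.65 at 3 h (log2 change -2.92 ± 0.10 SE, adjusted p 9.5e-13). Also lower were WOX4, its partner in the cambium (10.2 ± 0.941 to 3.23 ± 1.21 RPKM), and OBP4, which restrains cell growth (55.9 ± 7.65 to 6.57 ± 1.05 RPKM). Low-oxygen genes gave 6 higher and 3 lower of 12, with 2 tested through 3 h and 1 through 0 h libraries alone. SRO5 was at 0.697, 0.958 and 0.736 RPKM at 0 h and 32.3, 36.7 and 26.2 at 3 h (log2 change 4.18 ± 0.15 SE, adjusted p 2.7e-12) and ADH1 rose from 15.8 ± 2.55 to 54.6 ± 5.93 RPKM. HRE1 and HRA1 of the core response fell (-0.44 and -0.35), and of the 3 lower calls 1 was left without 0 h replicate 3, 3 h replicate 1 or 3 h replicate 2.

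**Figure D5:**
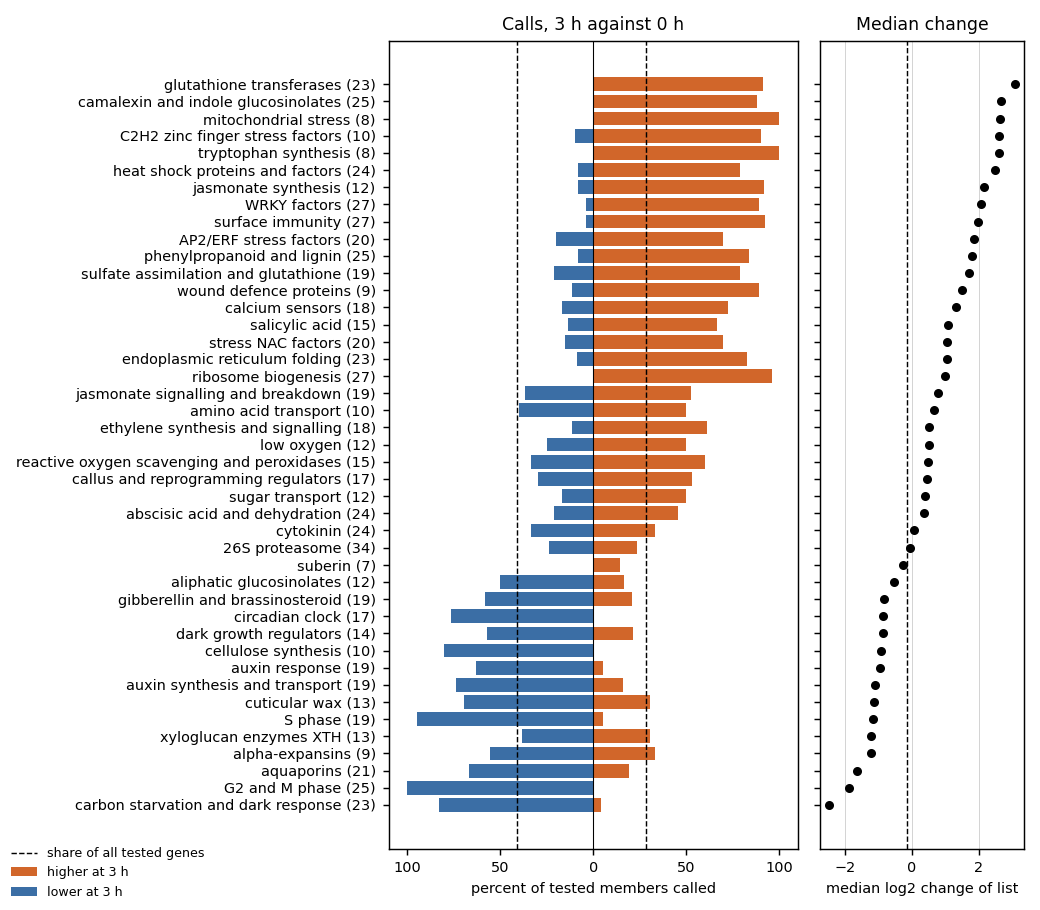
Share of tested members called higher (orange, to the right) or lower (blue, to the left) at 3 h for each gene list with at least 5 tested members, and the median log2 change of the list (right panel). The number of tested members is in brackets, and dashed lines mark the shares of all tested genes (28.6% higher, 41.1% lower) and their median of -0.14.

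A few genes stood higher or lower at 3 h than at each of 0, 1 and 6 h. The 12 and 24 h libraries did not enter this comparison. Transcripts at least 2-fold above 0 h, 1 h and 6 h, each called, numbered 118 (0.630%), and those at least 2-fold below numbered 19 (0.101%). IGMT3, at a mean of 273 RPKM at 3 h, stood at 14.4 RPKM at 1 h and 35.9 RPKM at 6 h, and the smaller of its log2 differences from those times was 2.91. WRKY53 was at 4.46, 6.99 and 2.52 RPKM at 0 h and 74.4, 85.2 and 74.9 at 3 h, with means of 5.85 RPKM at 1 h and 11.5 RPKM at 6 h. The log2 differences of 3 h from these were 3.57 (adjusted p 8.9e-09) and 2.66 (adjusted p 1.5e-06). Genes of the phloem protein 2 family followed: PP2-B14 was at 0.168, 0.445 and 0.222 RPKM at 0 h and 43.8, 81.1 and 67.9 at 3 h (log2 change 5.64 ± 0.20 SE, adjusted p 1.5e-12). PP2-B13 rose from 0.493 ± 0.215 to 45.9 ± 12.4 RPKM and PP2-A5 from 0.107 ± 0.0957 to 19.9 ± 6.51 RPKM. PP2-B13 and PP2-B14 share 90.2% of coding bases. NRT1.7, which loads nitrate into the phloem, rose from 13 ± 5.6 to 129 ± 14.2 RPKM, with means of 26.3 RPKM at 1 h and 25.9 RPKM at 6 h. At the low end, UGT72E2, a glucosyltransferase of monolignols, was at 43.7, 33.8 and 19.3 RPKM at 0 h and 3.06, 4.53 and 2.16 at 3 h, with 16.7 RPKM at 1 h and 13.3 RPKM at 6 h. TDT, the malate carrier of the vacuole, was at 173, 194 and 238 RPKM at 0 h and 15, 19.2 and 16 at 3 h (log2 change -3.51 ± 0.14 SE, adjusted p 5.0e-12), with 51.1 and 57.1 RPKM at 1 and 6 h. The others were TPX2 (AT1G65970, a thioredoxin-dependent peroxidase; 59.2 ± 43.2 to 15.1 ± 3.37 RPKM), RVE2, CYP71B23 (10.4 ± 1.27 to 1.39 ± 0.334 RPKM) and ZCF37 (38.6 ± 7.99 to 15.1 ± 1.76 RPKM). TPX2 was lower still at 24 h, at a mean of 12.9 RPKM. Its 0 h libraries stood at 31.3, 37.3 and 109 RPKM, replicate 3 being far above the others. Across all tested genes, 39.7% were higher and 22.6% lower at 3 h than at 1 h, and 15.2% and 19.7% than at 6 h.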

How the data were processed

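Stranded mRNA libraries were made from total RNA, per the labels. The authors deposited a single table of 28642 genes by 17 libraries. The header gives no unit, and the deposited table was taken as RPKM from the pattern of its low values. In 6208 of 6226 low genes these were whole multiples of a step in every library, a count that does not involve gene length. Of these genes, 6072 had an annotated length, and the length gave the depth used in 1649 of them. The unit and the depth estimates are therefore inferred, and dependence on length was not shown for most of these genes. The genome build is TAIR10 per the submitters' processing notes, while the aligner and read counter were not given in the sources used here. Reads of overlapping or near-identical genes may have been split between them. RefSeq's TAIR10.1 annotation paired 28009 loci with a record and 10588 with a symbol, and gave the upstream regions.

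Time was fitted as a factor of 6 levels to log2(RPKM + 1) of all 17 libraries with limma 3.58.1 (R 4.3.3; trend, robust), so all times share an estimate of the spread. Genes at 1 RPKM or more in 2 of the 6 libraries entered. P-values are Benjamini-Hochberg adjusted over 18734 genes and called at 0.05. Named genes were the 15 largest rises and falls with a symbol, at least 5 RPKM and groups apart, and up to 4 called members per list. Also named were the 6 highest and lowest at 3 h against 0, 1 and 6 h and the 6 most abundant of each direction. Some genes that this rule names are not reported here. List members beyond these were chosen after their values were seen, and the comparison, its members and its lists were chosen with earlier results of these data known. Alternatives were other pseudocounts, filters, scalings and libraries left out.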

Additional observations from a re-analysis of the deposited data

How the results depend on the processing

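Counts over all tested genes stayed within 1.5 times its value under the alternatives run, except that 53 genes in place of 19 were at least 2-fold below 0, 1 and 6 h with a pseudocount of 0.1. The cause was not tested. Leaving out each library in turn gave 5021 to 5166 genes higher, 7185 to 7537 lower, 2190 to 2332 higher by 2-fold and 2681 to 2825 lower by 2-fold. In the same fits, 115 to 132 genes were at least 2-fold above 0, 1 and 6 h and 19 to 22 at least 2-fold below. With median centring 46.95% of calls were higher, against 41.03%. None of the 264 genes that met the naming rule above changed sign under the alternatives run. That count does not cover genes named beyond the rule, such as the uncalled IAA19 and MTR4. Counts of small lists moved further: with a limit of 5 RPKM the SAUR genes gave 16 lower in place of 36, median centring left 31 of 47 lower pentatricopeptide repeat genes, and auxin response genes gave 2 or 3 higher in place of 1, 3 without 0 h replicate 1. Beside CER4 and EXPA11, calls were lost for CESA7 without 0 h replicate 1 (adjusted p 0.066) or 3 h replicate 2 (0.088) and for SEOR1 without 3 h replicate 2 (0.057). Deviations of libraries with the same replicate number correlated at 0.011, 0.185 and 0.223, and the 6 pairings of different numbers at -0.225 to 0.146. Of the 6 libraries 4 correlated best with their own number, a hint from the data and not from the design. As the first pair is near 0, the numbers were not taken to pair the samples. A fit with the replicate number as a block gave 5411 higher and 7788 lower, 2287 and 2768 of them by 2-fold. Depth limits calls among genes near 1 RPKM, where a gene of 1 kb rests on a few reads.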

Other observations

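Gene families defined by their RefSeq product names were counted beside the lists, against 28.6% of all tested genes higher and 41.1% lower. Of 22 tested cysteine-rich receptor kinases 17 were higher and 1 lower, but 7 of the 22 passed the limit of 1 RPKM through 3 h libraries alone and so had to be high there. CRK11 was at 2.21, 1.89 and 1.05 RPKM at 0 h and 37.4, 36 and 39.4 at 3 h (log2 change 3.85 ± 0.17 SE, adjusted p 2.5e-11). CRK25, one of the 7, rose from 0.531 ± 0.254 to 10.5 ± 0.819 RPKM. Of 124 leucine-rich repeat receptor kinases 30 were higher and 74 lower (5 tested through 3 h and 11 through 0 h libraries alone), although their summed level was 1875 to 1942 RPKM at 0 h and 2538 to 2667 RPKM at 3 h. AT1G74360 was the largest rise of that family, at 0.859, 0.993 and 0.673 RPKM at 0 h and 48.7, 52.6 and 51 at 3 h (log2 change 4.82 ± 0.10 SE, adjusted p 6.3e-15). Cytochrome P450 genes gave 45 higher and 63 lower of 128 (8 and 11 tested in this way), and their summed level was 2888 to 3613 RPKM at 0 h and 6564 to 6898 RPKM at 3 h. CYP715A1 rose from 0.109 ± 0.125 to 27.6 ± 1.71 RPKM and CYP706A2 from 29.2 ± 8.17 to 626 ± 49.2 RPKM. UDP-glycosyltransferases, which attach sugars to small molecules, gave 41 higher and 28 lower of 91 (12 and 5), led by UGT87A2 (8.36 ± 0.355 to 203 ± 12.2 RPKM). Class III peroxidases, enzymes of the cell wall, gave 17 higher and 9 lower of 41, with 4 tested through 3 h libraries alone, PER4 among them. PER4 was at 0.633, 0.836 and 0.209 RPKM at 0 h and 107, 109 and 106 at 3 h (log2 change 6.14 ± 0.27 SE, adjusted p 4.6e-11), while the summed level of the family was lower at 3 h, 5390 to 5495 RPKM against 12977 to 14546 RPKM. A second bHLH gene without a symbol, AT4G20970, was at 0.168, 0 and 0.444 RPKM at 0 h and 194, 159 and 192 at 3 h (log2 change 7.26 ± 0.36 SE, adjusted p 3.8e-10), whereas 48 of 87 genes of that family were lower and 24 higher. Of the 87, 8 were tested through 3 h libraries alone, AT4G20970 among them, and 8 through 0 h libraries alone. HBI1, a growth-promoting member, fell from 10.6 ± 3.85 to 0.297 ± 0.143 RPKM.

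Most tubulin, kinesin and histone genes were lower. Of 16 tubulin genes 14 were lower and 1 higher, the last call lost without 0 h replicate 2 or 3 h replicate 3. TUB5 was at 96.4, 90.8 and 60.1 RPKM at 0 h and 6.52, 9.49 and 5.74 at 3 h (log2 change -3.34 ± 0.21 SE, adjusted p 2.0e-09), and the next, TUB7, changed by -1.11. Kinesins, the motors that run on tubulin fibres, gave 20 lower and 1 higher of 26. Of 42 histone genes 32 were lower and 5 higher, and the linker histone HIS1-3 changed most, at 198, 228 and 347 RPKM at 0 h and 17.8, 19.2 and 14.4 at 3 h (log2 change -3.80 ± 0.25 SE, adjusted p 4.6e-09). Of 53 SAUR genes, small auxin-responsive genes, 36 were lower and 6 higher, but 27 of the 53 passed the limit of 1 RPKM through 0 h libraries alone and so had to be low at 3 h. The largest change was the rise of AT4G22620, from 1.71 ± 0.729 to 19.3 ± 1.39 RPKM. Ribosomal protein genes gave 136 higher and 90 lower of 359, 14 and 28 of them by 2-fold, and 257 were above their 1 h level. The 4 largest changes were falls, among them AT5G24490, annotated as a 30S ribosomal protein, from 12.7 ± 3.32 to 2.1 ± 0.198 RPKM. Of 24 ABC-2 type transporters 14 were tested, with 6 higher and 6 lower, and ABCG1 rose from 1.62 ± 0.837 to 38.1 ± 6.25 RPKM.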
